A study of Mus musculus with 16 samples.

Results

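The 16 left ventricle libraries of this series carry a running number at the end of their titles, and the libraries numbered 1 to 8 (early, n = 7) were compared here with those numbered 9 to 18 (late, n = 9). The classes were set by that number alone and together hold all 16 libraries, each from 1 mouse; 1 number in each run is not analysed here. What the number stands for (an order of mice, dissection, extraction or sequencing) is stated neither in the labels nor in the file headers, so early and late are names for the numbers and not for ages or times. All mice were C57BL/6 and had 5 days of tamoxifen injections. Pumps delivering angiotensin II (AngII) followed after 2 weeks and ran for 8 weeks. AngII raises blood pressure and loads the heart. The mice were Tln2-null, or Tln2-null with Tln1 also deleted in cardiac fibroblasts, called knockout here. Talins, the products of Tln1 and Tln2, link integrins to the actin cytoskeleton. All groups therefore lack Tln2 and all were treated, with neither untreated nor wild-type animals for comparison. The driver of the fibroblast deletion and the ages are not given in the labels. The early class held 4 Tln2-null and 3 knockout mice (4 females, 3 males) and the late class 4 Tln2-null and 5 knockout mice (4 females, 5 males), so genotype was a term of the gene-wise comparison of the classes. The library measures below (summed markers, depth, GC tilt) were compared over all libraries with no genotype term.

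The left ventricle is mostly cardiomyocyte by mass, with capillary endothelial cells, fibroblasts, pericytes and resident macrophages between the muscle cells. Endothelial cells seal capillaries with claudins such as Cldn5. Cells with misfolded proteins in the endoplasmic reticulum (ER) raise chaperones and the degradation factor Herpud1 through the unfolded protein response. Metallothioneins and glucocorticoid target genes change with stress hormones, metals and the time of day, and are therefore often read as markers of tissue state. In bulk tissue, fewer cells of a type and less RNA per cell cannot be told apart.

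Total counts ran from 14377696 to 19008552 in the early and from 11161766 to 19221673 in the late libraries (exact two-sided permutation over the 11440 divisions of the 16 libraries, p = 0.379), and 16001 to 16588 genes had a count. Cardiomyocyte markers were abundant in every library (summed 45827 to 55424 CPM, which is counts relative to the normalized library size), and the atrial genes Myl7 and Sln stayed under the filter on low counts. Libraries 14, 15, 16 and 18, all late, stood apart in base composition. For each library the median log2 deviation from the mean of all libraries was taken in 5 equal bins of genes by the GC content of their longest transcript. The lowest bin minus the highest was 0.147, 0.281, 0.30 and 0.320 in libraries 14, 15, 16 and 18, and from -0.132 to -0.044 in the other 12. The same libraries had total counts of 11161766 to 15015243, a range that overlapped the 14377696 to 19221673 of the other 12. Over the classes the tilt was -0.093 ± 0.027 in early and 0.071 ± 0.189 in late libraries (SD, n = 7 and 9; exact two-sided permutation p = 0.0389). Libraries 6, 8, 12 and 16, all from females, held Y-linked reads above 1% of the male mean, at 3.14 to 8.14 CPM, against 0.495 to 1.11 CPM in the other females. Results are therefore given also without each of these sets and with a correction for GC content, where these change a call.

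**Figure D1:**
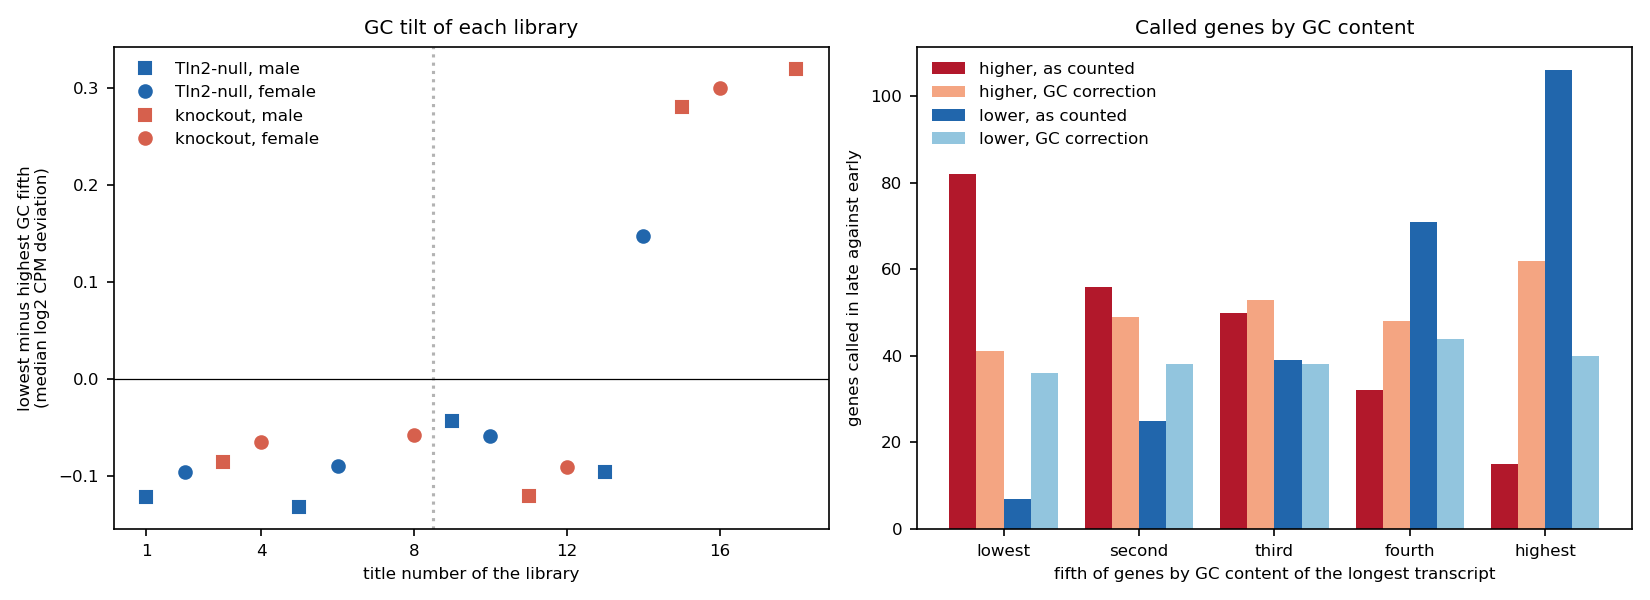
Left, the GC tilt of each library (median log2 CPM deviation of the lowest minus the highest of 5 bins of genes by GC content) against its title number, with the classes parted by the dotted line. Right, genes called in late against early in each GC bin, as counted and after GC correction: 82 higher and 7 lower in the lowest bin became 41 and 36, and 15 higher and 106 lower in the highest became 62 and 40.

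Of 13517 genes tested, 485 (3.59%) differed between the late and early libraries at an adjusted p under 0.05, here named called (edgeR's quasi-likelihood test with Benjamini-Hochberg adjustment over all genes, genotype as covariate). In the late libraries 236 genes (1.75%) were higher and 249 (1.84%) lower. Without adjustment, 2847 genes (21.1%) had a p under 0.05. Changes were mostly small: the median absolute log2 difference of the called genes was 0.38, 102 differed by more than 1.5-fold and 27 by more than 2-fold. Over all genes the log2 differences had a median of 0.00 and a median standard error (SE) of 0.09. For 101 genes (0.747%) no late library overlapped any early library, 60 with all late libraries above and 41 with all below, and 95 of these were called. Called genes that were higher had a median GC content of 46.7%, those that were lower 54.5%, and all tested genes with a GC value 49.7%. With the GC correction 449 of 13415 genes (3.35%) were called, 253 higher (1.89%) and 196 lower (1.46%), of which 337 were shared with the 485 (69.5% of these and 75.1% of those). DESeq2, with its own filter, called 958 genes, 484 of them among the 485. These are 4.99% of the 19215 genes with an unadjusted p, counted before that filter, so this share is not like the 3.59%. The direction was the same for all 483 called genes that the GC-corrected fit tested. Both fits use the same libraries, so this direction is a description.

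Leaving out 1 library at a time gave from 204 calls (without early library 8) to 641 (without late library 11). Besides library 8, it moved the count by over 1.5 times to 301 without library 1 or 3, 215 without library 4, 258 without library 9, 311 without library 15 and 323 without library 18. Without libraries 14, 15, 16 and 18 there were 136 calls (71 higher, 65 lower), of which 107 were among the 485, and without females 6, 8, 12 and 16 58, of which 56 were among them. Each time, all of the 485 that were tested kept their sign (484 and 485). Since these genes were chosen from all 16 libraries, most of which each refit reuses, this sign is a description. In all, 147 of the 485 genes were called with each library left out in turn, 80 higher and 67 lower. Fewer libraries also give less power, so a call that ends does not by itself mean a smaller difference.

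**Figure D2:**
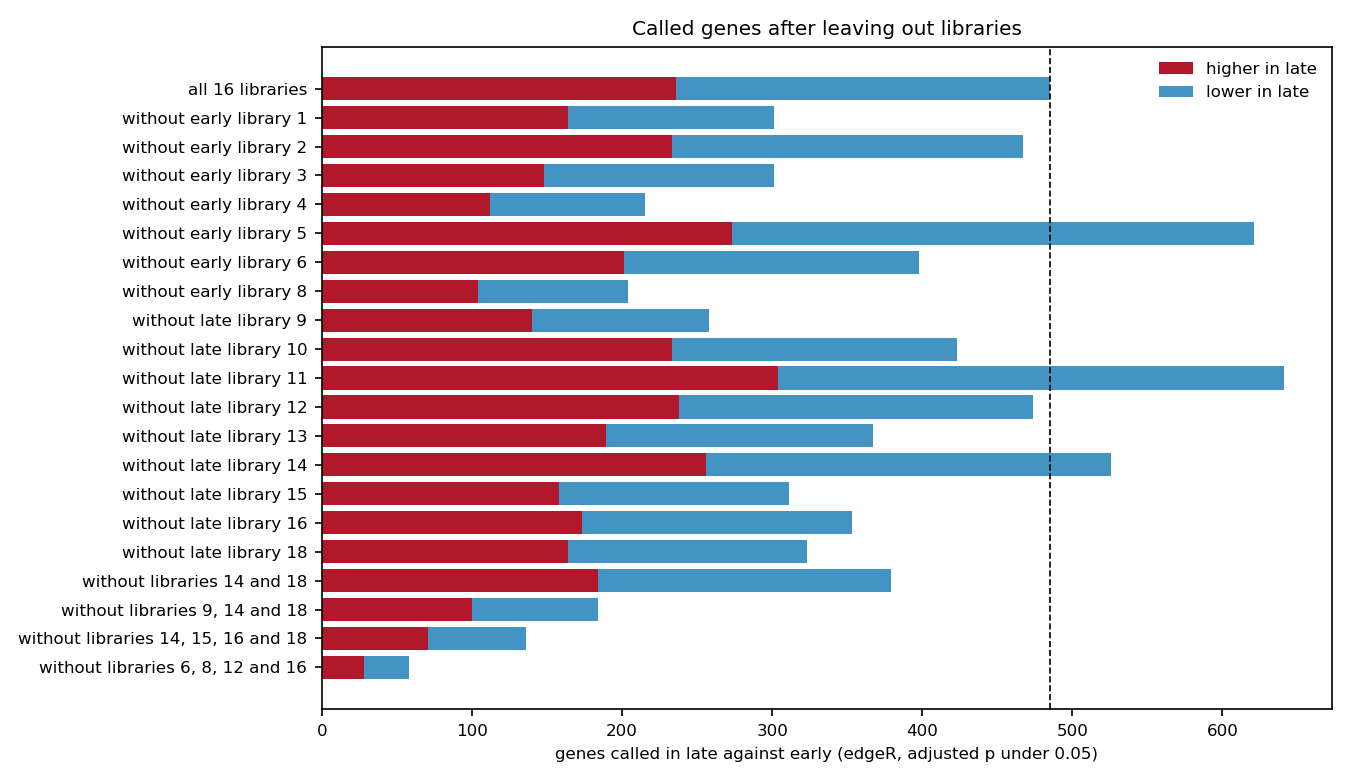
Genes called in late against early (edgeR, adjusted p under 0.05), higher and lower, with all 16 libraries and after leaving out the libraries named at each bar. The dashed line marks the 485 calls with all libraries; counts ran from 58 without libraries 6, 8, 12 and 16 to 641 without library 11.

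Cldn5 and 4 other endothelial markers were lower in the late libraries. Cldn5, the claudin of endothelial tight junctions, ran from 36.7 to 65.1 CPM in the early (median 47.5) and from 23.1 to 37.4 CPM in the late libraries (median 25.9). All late libraries were below the early median and 8 of 9 were below every early library. Cldn5 (RefSeq GRCm38.p6, chr16:18776847-18778262) was 1.73-fold lower in late (log2 difference -0.79 ± 0.13 SE; edgeR adjusted p = 0.00354). The gene was called without each library in turn (highest adjusted p 0.0131), after GC correction (-0.68, adjusted p = 0.0165) and without libraries 14, 15, 16 and 18 (-0.91, 0.0129). Library 6 at 37.1 and library 8 at 36.7 were the lowest early values, and library 14 at 37.4 the highest late value.

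Of the 28 endothelial markers, 5 were called lower (17.9%, against 1.84% of all genes) and none higher (25 log2 differences were below 0 and 22 markers had an unadjusted p under 0.05; median -0.18, against 0.00 over all genes). Pecam1, an adhesion molecule of endothelial junctions, ran from 252 to 321 CPM in early (median 263.0) and from 214 to 246 CPM in late libraries (median 231). Its classes did not overlap, and the log2 difference was -0.27 ± 0.06 (edgeR adjusted p = 0.0151). Gpihbp1, which carries lipoprotein lipase into the capillary, ran from 89.9 to 126 CPM and from 71.3 to 96.2 CPM (medians 97.4 and 81.4; -0.32 ± 0.08, adjusted p = 0.0294). Early library 1 was the only one above 102 CPM, and the call ended without library 1, 4, 8, 13, 16 or 18. Esam, a further junction molecule (-0.30 ± 0.08, 0.0404), and Ly6c1 (-0.27 ± 0.07, 0.0482) were the other called members. None of these 4 calls was made without libraries 14, 15, 16 and 18 (adjusted p 0.0846, 0.175, 0.103 and 0.114), although the log2 differences stayed between -0.26 and -0.30. Nor was any of them made without females 6, 8, 12 and 16 (0.094, 0.16, 0.196 and 0.0943). Those of Esam (0.0736) and Ly6c1 (0.0519) also ended after GC correction, and that of Esam with sex as a term, with a surrogate variable and without library 1, 3, 4, 6, 8, 9, 10, 12, 13, 15, 16 or 18. The other 3 markers went the other way without being called, among them the VEGF receptor gene Kdr (0.28, adjusted p = 0.21) and Emcn (0.25, 0.0694). The sum of a second list, lymphatic and endocardial markers, did not differ (means of 255 CPM in both classes, exact permutation p = 0.97). The summed level of the endothelial list was 3562 to 4338 CPM in early and 3311 to 3783 CPM in late libraries, a difference of -399 CPM (exact two-sided permutation p = 0.00122, adjusted p = 0.0233 over 19 library measures). That call ended without early library 4 (-326 CPM), without late library 13 or 16 (highest adjusted p of these 0.0541), without libraries 14, 15, 16 and 18 (-410 CPM, 0.144) and without females 6, 8, 12 and 16 (-337 CPM, 0.156).

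Herpud1, which the unfolded protein response raises and which takes part in degradation of ER proteins, was also lower in the late libraries, but the ER chaperones were not. The promoters are shown to set these genes beside each other. Both Herpud1 and the chaperone gene Hspa5 are known targets of the response, and each promoter holds a form of the ER stress response element. The sequences are RefSeq GRCm38.p6, from 250 bases before to 50 after the annotated start, 5′ to 3′ on the plus strand, Herpud1 at chr8:94386179-94386478 and Hspa5 at chr2:34771840-34772139. Capitals mark ATTGG and CCACG 1 base apart (element II) in Herpud1 and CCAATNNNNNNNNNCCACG (element I) in Hspa5, each searched on both strands.
Herpud1: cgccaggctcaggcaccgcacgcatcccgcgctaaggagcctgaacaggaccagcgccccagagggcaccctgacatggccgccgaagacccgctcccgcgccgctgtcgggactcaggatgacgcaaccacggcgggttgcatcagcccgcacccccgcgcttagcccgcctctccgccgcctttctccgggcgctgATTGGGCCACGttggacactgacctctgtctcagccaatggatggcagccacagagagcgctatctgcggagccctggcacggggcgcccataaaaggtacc
Hspa5: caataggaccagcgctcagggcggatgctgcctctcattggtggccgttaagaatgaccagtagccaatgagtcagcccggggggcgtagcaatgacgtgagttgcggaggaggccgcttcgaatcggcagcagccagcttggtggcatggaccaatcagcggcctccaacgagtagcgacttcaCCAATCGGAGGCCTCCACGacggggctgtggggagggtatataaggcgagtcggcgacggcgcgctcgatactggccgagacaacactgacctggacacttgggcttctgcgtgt
Element II was in 12 of the 32851 promoters of this length that were searched (0.0365%) and the first form in 39 (0.119%). The search left out 1 chromosome. Of the 20 ER chaperone genes with a promoter in the table, 7 held the first form (Calr, Canx, Creld2, Dnajc3, Hsp90b1, Hspa5 and Pdia6) and Dnajb11 the second. A match is a description of these letters only.

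Herpud1 ran from 424 to 728 CPM in the early (median 493.4) and from 197 to 449 CPM in the late libraries (median 318). Only late library 16 reached into the early range, above early library 6. The gene (chr8:94386429-94395371) was 1.68-fold lower in late (log2 difference -0.75 ± 0.14; edgeR adjusted p = 0.011) and was called without each library in turn (highest adjusted p 0.0306), after GC correction (-0.72, 0.0137) and without libraries 14, 15, 16 and 18 (-0.71, 0.0139). Hspa5, the main chaperone of the ER lumen, ran from 546 to 783 CPM in early (median 625.3) and from 605 to 933 CPM in late libraries (median 788). The classes overlapped, and its log2 difference was 0.27 ± 0.09 (adjusted p = 0.0877), the opposite sign to Herpud1. Of 23 chaperones and folding enzymes none was called, while 22 had a log2 difference above 0 (median 0.10; 5 at an unadjusted p under 0.05). Manf (0.33 ± 0.11, adjusted p = 0.0951), Pdia3 (0.23 ± 0.08, 0.108) and Hsp90b1 (0.20 ± 0.07, 0.111) had the lowest p after Hspa5. Herpud1 was the only called member of the 20 degradation genes tested (5.0%, near the 3.59% of all genes, list median 0.02). The response's factor Xbp1 (0.15, 0.226), the sensor Ern1 (-0.18, 0.325) and the ligase gene Syvn1 (-0.14, 0.294) did not pass. Of 22 targets of ATF4, the factor of the amino acid and ER stress branch, none was called (17 below 0, median -0.14). Chac1, a glutathione-degrading enzyme (-1.05 ± 0.29, 0.0507), and Mthfd2, an enzyme of mitochondrial folate metabolism (-0.69 ± 0.20, 0.0582), came closest.

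**Figure D3:**
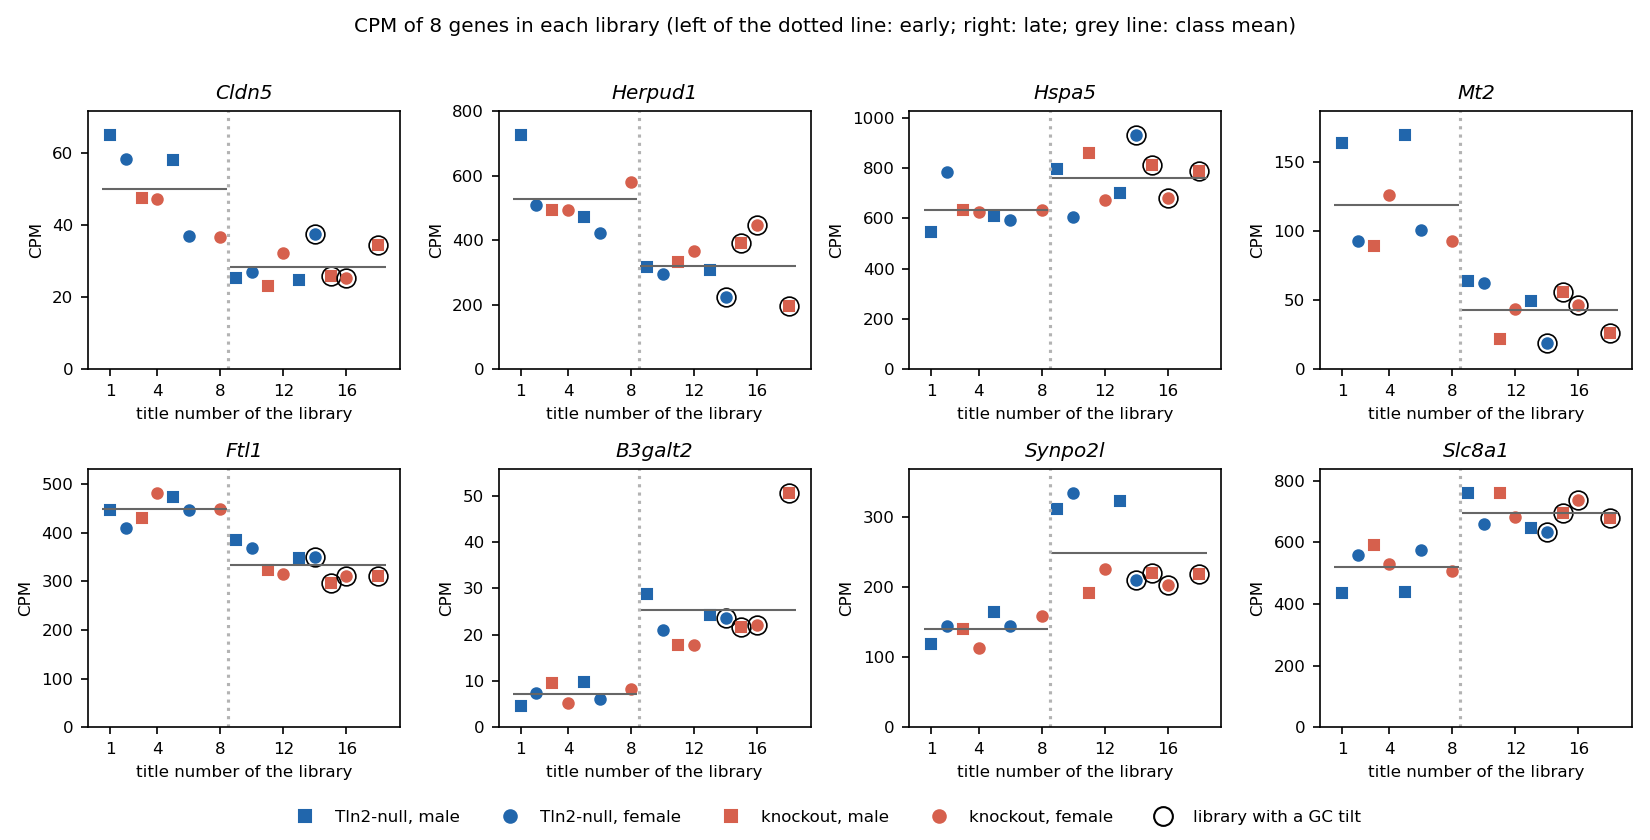
CPM of 8 genes in each library against its title number, with colours for genotype, squares for males, circles for females, black rings for the 4 libraries with a GC tilt and grey lines for class means. Mt2, Ftl1, B3galt2, Synpo2l and Slc8a1 do not overlap between the classes, Cldn5 and Herpud1 overlap through 1 late library each, and Hspa5 overlaps widely.

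Metallothioneins, small proteins that bind zinc and copper, were lower in every late library. Their promoters are shown because both genes moved together. Capitals mark the core of the metal response element, TGCGCNC or TGCACNC, on either strand, in RefSeq GRCm38.p6 windows on the plus strand (Mt1, chr8:94178839-94179138; Mt2, chr8:94172368-94172667).
Mt1: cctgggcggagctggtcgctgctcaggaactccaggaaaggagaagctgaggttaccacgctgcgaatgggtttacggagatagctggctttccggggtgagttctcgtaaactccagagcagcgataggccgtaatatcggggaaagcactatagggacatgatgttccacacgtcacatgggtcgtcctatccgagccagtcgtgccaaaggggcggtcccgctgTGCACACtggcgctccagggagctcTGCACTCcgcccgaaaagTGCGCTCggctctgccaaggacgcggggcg
Mt2: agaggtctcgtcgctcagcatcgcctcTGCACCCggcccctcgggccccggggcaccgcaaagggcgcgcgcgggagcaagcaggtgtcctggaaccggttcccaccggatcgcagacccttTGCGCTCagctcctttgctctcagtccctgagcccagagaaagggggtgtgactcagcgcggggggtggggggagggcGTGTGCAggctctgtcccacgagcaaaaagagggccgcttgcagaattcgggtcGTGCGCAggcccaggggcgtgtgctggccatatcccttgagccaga
The promoter table sets the Mt1 window on a start downstream of the first base of the RefSeq gene span, so most of that window lies inside the span. The windows held 3 and 4 matches, and 25.7% of the promoters of this length that were searched held at least 1. Mt1 (chr8:94178883-94180327) ran from 252 to 343 CPM in early (median 261) and from 120 to 216 CPM in late libraries (median 177). Its neighbour Mt2 (chr8:94172618-94173567) ran from 89.4 to 170 CPM (median 101) and from 18.7 to 64.3 CPM (median 46.3). Neither gene's classes overlapped. Mt1 was 1.62-fold lower (log2 difference -0.69 ± 0.11; edgeR adjusted p = 0.00289) and Mt2 2.67-fold lower (-1.42 ± 0.23, 0.00354), and both were called under every alternative run on this comparison. Libraries 11, 14 and 18 had the lowest late Mt2, at 21.8, 18.7 and 26.2 CPM, and the male Tln2-null libraries 1 and 5 the highest early Mt2, at 164 and 170 CPM.

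Both metallothioneins belong to a list of 20 glucocorticoid targets, of which 4 were called lower and 1 higher (against 1.84% and 1.75% of all genes; median -0.35; 17 below 0). Fkbp5, a co-chaperone that restrains the glucocorticoid receptor and is induced by it, ran from 85.2 to 166 CPM in early and from 34.5 to 107 CPM in late libraries (medians 109 and 69.9). Only 1 late library entered the early range, and the log2 difference was -0.86 ± 0.19 (adjusted p = 0.019). Lcn2, an iron-binding secreted protein, ran from 4.63 to 16.4 CPM and from 2.16 to 6.43 CPM (medians 6.34 and 3.12; -1.13 ± 0.27, 0.0294), with overlap in 2 late libraries. The receptor's own gene, Nr3c1, was the member called higher, by a small amount (means 127 and 146 CPM; 0.20 ± 0.05, 0.0333). The classical targets Zbtb16 (-0.59 ± 0.31, 0.278), Sgk1 (-0.31 ± 0.14, 0.206) and Tsc22d3 (-0.29 ± 0.16, 0.323) did not pass. The Fkbp5 call ended without early library 8, without libraries 14, 15, 16 and 18 (-0.74, 0.0804) and without females 6, 8, 12 and 16 (-0.92, 0.0583). The Lcn2 call ended without early library 3 or 8, without late library 9, 10 or 13 and without those females (-1.34, 0.0696). The Nr3c1 call ended after GC correction (0.13, 0.0573), without libraries 14, 15, 16 and 18 (0.14, 0.212) and without those females (0.22, 0.0994).

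Several genes of the NRF2 pathway, which defends against oxidants, were lower as well: 6 of 23 were called lower (against 1.84% of all genes) and none higher (median -0.11; 16 below 0). Ftl1, the light chain of the iron store ferritin, ran from 411 to 483 CPM in early (median 448) and from 296 to 386 CPM in late libraries (median 324). Its classes did not overlap. The log2 difference was -0.42 ± 0.05 (edgeR adjusted p = 0.000728), and it was -0.33 after GC correction (0.00243) and -0.37 without libraries 14, 15, 16 and 18 (0.0129). Srxn1, which repairs oxidised peroxiredoxins, ran from 40.1 to 62.6 CPM and from 28.4 to 40.5 CPM (medians 46.3 and 33.9; -0.51 ± 0.09, 0.00633), with 1 late library in the early range. Hmox1, the haem-degrading enzyme, ran from 16.1 to 108 CPM in early and from 8.29 to 19.1 CPM in late libraries (medians 22.0 and 11.9). It was high in early libraries 1 (108 CPM), 4 (61.1 CPM) and 5 (42.1 CPM), while the other early libraries at 16.1 to 22.0 CPM were close to the late ones. Its log2 difference of -1.68 ± 0.36 (0.0178) was not called without early library 4 (adjusted p 0.0681) or without libraries 14, 15, 16 and 18 (-1.61, 0.12). The thioredoxin reductase Txnrd1 (-0.26 ± 0.06, 0.0222), the glutathione synthesis subunit Gclm (-0.54 ± 0.14, 0.0452) and Osgin1 (-0.66 ± 0.18, 0.0465) were the other called members. The Txnrd1 call ended without library 4, and those of Srxn1 (0.0535), Gclm (0.0966) and Osgin1 (0.245) without libraries 14, 15, 16 and 18. Without females 6, 8, 12 and 16 the calls of Txnrd1 (-0.30, 0.0692), Gclm (-0.72, 0.0543) and Osgin1 (-0.85, 0.0696) ended, although these differences were larger than with all libraries. After GC correction the Osgin1 call ended as well (0.0713). The pathway did not move as a whole: the ferritin heavy chain Fth1 (0.07, 0.42) and the classical target Nqo1 (0.17, 0.194) had differences above 0.

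Of the 12 genes of lowest p that were higher in the late libraries, those with a known part in muscle cells are given first; they were grouped after their values were seen and stand for no tested theme. Lmod3, a leiomodin that nucleates actin filaments, ran from 89.4 to 120 CPM in early (median 114.0) and from 136 to 196 CPM in late libraries (median 166). Synpo2l, an actin-binding protein of the Z-disc, ran from 114 to 164 CPM (median 144.0) and from 192 to 335 CPM (median 219). In neither gene did the classes overlap. Lmod3 was 1.52-fold (log2 difference 0.61 ± 0.08; edgeR adjusted p = 0.000728) and Synpo2l 1.79-fold higher (0.84 ± 0.11, 0.000837), and both were called under every alternative run. Late Tln2-null libraries 9, 10 and 13 had Synpo2l at 311, 335 and 322 CPM, above all other late libraries (192 to 225 CPM). Slmap, a tail-anchored protein of the sarcolemma, ran from 204 to 291 CPM and from 305 to 464 CPM (medians 239.0 and 356), and Akap6, which anchors protein kinase A at the cardiomyocyte's nuclear envelope, from 161 to 201 CPM and from 214 to 304 CPM (medians 191 and 249). Both again had classes without overlap (0.63 ± 0.09 and 0.43 ± 0.06, adjusted p = 0.00221 each). Carns1, which makes carnosine, a buffering dipeptide of muscle (0.66 ± 0.09, 0.00195), and Lsmem1 (0.58 ± 0.08, 0.00207) were also called with all late above all early libraries.

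Of 27 calcium handling and ion channel genes, Slc8a1 alone was called. This sodium-calcium exchanger ran from 437 to 593 CPM in early (median 531) and from 634 to 762 CPM in late libraries (median 682). Its classes did not overlap (log2 difference 0.41 ± 0.07; edgeR adjusted p = 0.00354; 0.34 after GC correction, 0.0253). The calcium pump Atp2a2 (0.02, 0.819) and its inhibitor Pln (0.20 ± 0.06, 0.0752) were not called, and the list's median was 0.05. Of 22 sarcomere genes, Tmod1, which caps thin filaments, was called (414 to 497 CPM in early and 505 to 563 CPM in late; medians 458 and 514; 0.21 ± 0.04, 0.016) and 19 were above 0 (median 0.09). Its call ended without libraries 14, 15, 16 and 18 (0.19, 0.09) and without females 6, 8, 12 and 16 (0.20, 0.115). Both lists held called members at 3.7% and 4.55%, near the 3.59% of all genes. Of 20 hypertrophy and fetal genes, 3 were called, all higher (against 1.75% of all genes; median 0.14): Synpo2l, the calcineurin regulator Rcan1 (0.67 ± 0.16, 0.0282) and the intercalated disc gene Xirp1 (0.55 ± 0.13, 0.0294). Rcan1 ran from 90.4 to 118 CPM in early and from 106 to 255 CPM in late libraries. It was highest in libraries 9, 14 and 18 (255, 231 and 244 CPM). Rcan1 was not called without library 1, without library 9, without libraries 14 and 18 or without females 6, 8, 12 and 16 (0.76, 0.0898). The Xirp1 call ended without library 1, 4, 6, 8 or 9, without libraries 14 and 18, without libraries 14, 15, 16 and 18 (0.0966), without females 6, 8, 12 and 16 (0.119) and with the number as a linear term. Nppb, which encodes the wall stress peptide BNP, ran from 10.2 to 173 CPM and from 93.6 to 629 CPM (medians 92.9 and 224). It did not pass (1.46 ± 0.44, 0.0691). Late libraries 14 and 18 had the highest Nppb, at 629 and 512 CPM, and the other late libraries were at 93.6 to 237 CPM. Nppa (-0.16, 0.794) and Myh7 (-0.09, 0.907) differed by less than their SE. The summed cardiomyocyte markers were 50105 ± 2643 CPM in early and 53002 ± 2341 CPM in late libraries (SD, n = 7 and 9; exact permutation p = 0.0389, adjusted p = 0.133), and 13 of 15 had a log2 difference above 0 with none called. Their part in the results on muscle genes was not tested.

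The other genes of lowest p that were higher in late libraries had no common role. B3galt2, a glycosyltransferase, ran from 4.63 to 9.85 CPM in early (median 7.32) and from 17.7 to 50.7 CPM in late libraries (median 22.1). It showed no overlap and a 3.46-fold difference (log2 1.79 ± 0.22; edgeR adjusted p = 0.000728; 1.59 ± 0.19, 0.00648 without libraries 14, 15, 16 and 18). Usp28, a deubiquitinase, ran from 202 to 244 CPM and from 271 to 327 CPM (medians 223 and 307; 0.43 ± 0.05, 0.000728). Lbh, a transcriptional cofactor of limb and heart development, ran from 282 to 549 CPM and from 674 to 809 CPM (medians 467 and 753; 0.72 ± 0.11, 0.00221). All 3 had every late above every early library. Polr1e, a subunit of RNA polymerase I (0.59 ± 0.08, 0.00125), Ezr, which ties the membrane to actin (0.39 ± 0.06, 0.00258), and Cenpa, the centromeric histone H3 variant (0.55 ± 0.08, 0.00258), completed the set. Ezr was 69.1 to 87.0 CPM in early and 87.1 to 107 CPM in late libraries, so its classes parted by less than 1 CPM. Cenpa was 29.0 to 37.8 and 35.8 to 55.6 CPM, with 1 late library in the early range. All of these were called under every alternative run.

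Among the genes of lowest p that were lower in late libraries, Lrrc52, a leucine-rich repeat protein that modulates potassium channels, ran from 3.81 to 10.9 CPM in early (median 7.26) and from 1.17 to 3.80 CPM in late libraries (median 2.39). The classes met but did not overlap, and the gene was 3.21-fold lower (log2 difference -1.68 ± 0.22; edgeR adjusted p = 0.00092). Ms4a4a, a surface protein of macrophages, ran from 3.73 to 11.1 CPM and from 2.32 to 3.88 CPM (medians 8.01 and 3.10; -1.33 ± 0.18, 0.00107). All late libraries were below the early median. The scavenger receptor gene Cd163, also of macrophages, was lower too (means 33.0 and 24.5 CPM, log2 difference -0.47 ± 0.12, edgeR adjusted p = 0.0356). It was the only call on the list of 18 macrophage markers (5.56%, against 3.59% of all genes, median -0.05). Cd163 was not called without libraries 14, 15, 16 and 18 (0.151) or without females 6, 8, 12 and 16 (0.155). Cldn15, a second claudin, ran from 6.63 to 10.7 CPM and from 3.51 to 6.01 CPM (medians 8.03 and 4.59; -0.85 ± 0.12, 0.00125). Furin, the proprotein convertase that cleaves hormone and growth factor precursors, ran from 156.0 to 224 CPM and from 94.8 to 135 CPM (medians 182.0 and 129; -0.56 ± 0.08, 0.00221). Neither gene's classes overlapped. Ints3, of the Integrator complex (-0.39 ± 0.06, 0.00258), the calpain Capn10 (-0.49 ± 0.08, 0.00258) and the microtubule-binding Spef1 (-0.48 ± 0.08, 0.00354) likewise had all late below all early libraries. Lrrc8a, a subunit of the volume-regulated anion channel, was 56.4 to 84.8 and 47.5 to 61.4 CPM (-0.48 ± 0.08, 0.00354). It was not called without libraries 14, 15, 16 and 18 (-0.43, 0.0532) or without females 6, 8, 12 and 16 (0.06), and Spef1 not without these females (0.059).

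**Figure D4:**
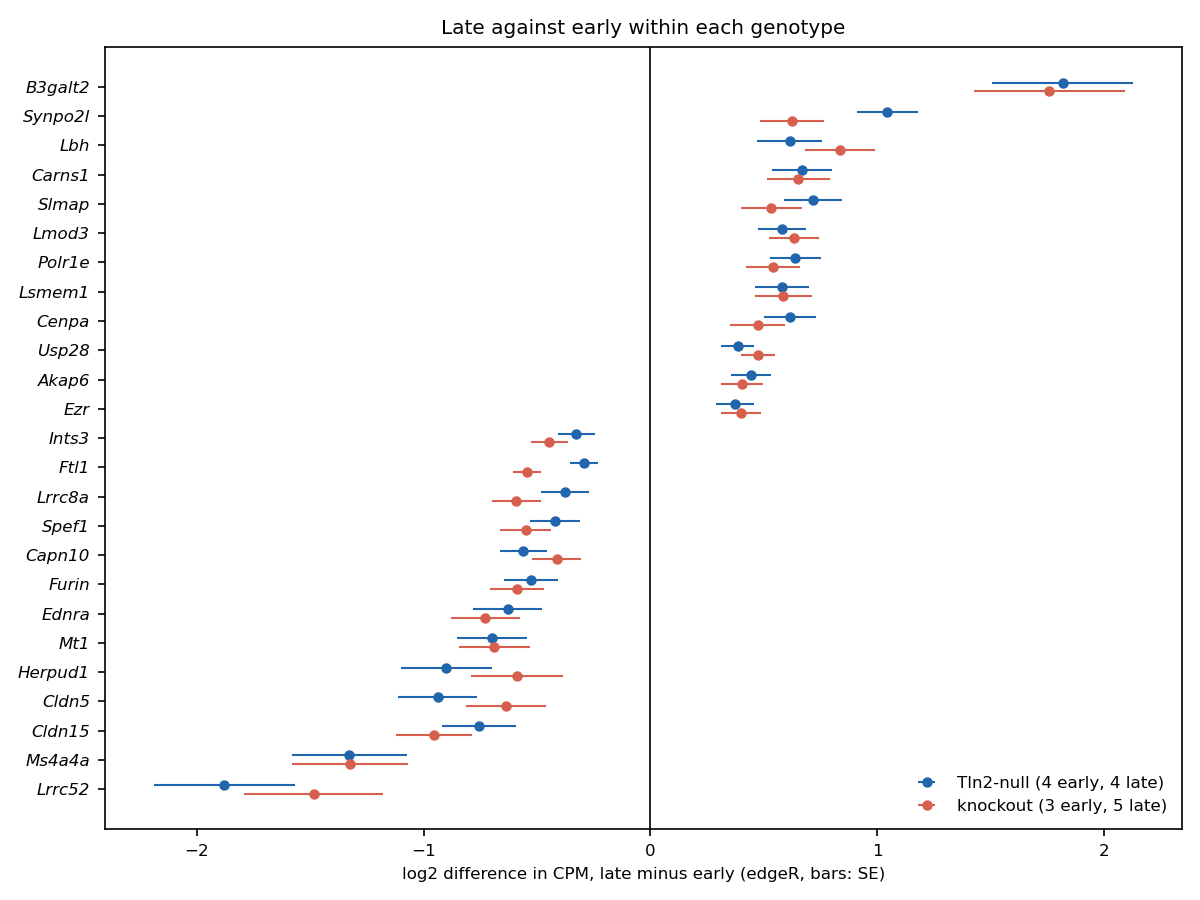
Log2 difference, late minus early, within Tln2-null and within knockout mice for Cldn5, Herpud1 and the 24 genes taken by lowest p (Cldn5 is 1 of them); bars are SE from edgeR. Every gene has the same sign in both genotypes, and since the genes were chosen from all mice together this sign is a description.

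Receptors of vasoactive peptides, through which AngII and endothelin act on vessels and muscle, moved in both directions. Agtr1a, the main AngII receptor, ran from 35.4 to 55.5 CPM in early (median 50.9) and from 57.7 to 75.1 CPM in late libraries (median 61.3). Ednra, the endothelin receptor of smooth muscle, ran from 87.7 to 130.0 CPM (median 111) and from 56.6 to 93.9 CPM (median 66.8). Agtr1a had no overlap, and Ednra had 1 late library in the early range. The log2 differences were 0.40 ± 0.09 for Agtr1a (edgeR adjusted p = 0.019) and -0.68 ± 0.11 for Ednra (0.00297). Npr1, the receptor of natriuretic peptides, was 37.2 to 43.5 and 29.3 to 40.4 CPM (medians 42.6 and 31.0; -0.30 ± 0.07, 0.0322). The Ednra call held without libraries 14, 15, 16 and 18 (-0.75, 0.0115) but not without females 6, 8, 12 and 16 (-0.61, 0.0559). The Agtr1a call ended without either set (0.38, 0.0966; 0.31, 0.094) and without library 4 or 8, and the Npr1 call ended after GC correction (-0.23, 0.105), as it did without either set (0.0824 and 0.132) and without library 1, 3, 4, 6, 9, 10, 15 or 18. These were 3 of 18 members of the pathway tested (16.7%, against 3.59% of all genes), and the list median was -0.07.

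Few matrix genes were called. Of 30 fibrillar collagens and matrix glycoproteins, 2 were called lower (6.67%, against 1.84% of all genes) and 26 had a log2 difference below 0 (median -0.21). Fbln2, an elastic fibre and basement membrane protein, ran from 194 to 268 CPM in early (median 237) and from 132 to 210 CPM in late libraries (median 147). Eln, which encodes elastin, ran from 45.0 to 106 CPM and from 19.7 to 66.9 CPM (medians 59.99 and 34.7). The classes overlapped in both genes. The log2 differences were -0.50 ± 0.10 (edgeR adjusted p = 0.0144) for Fbln2 and -0.78 ± 0.19 (0.0294) for Eln. Lama5, a laminin chain, was the 1 called gene of 19 basement membrane genes (5.26%, against 3.59% of all genes, list median -0.17). It was 262 to 470 CPM in early and 196 to 346 CPM in late libraries (medians 364 and 228). Its log2 difference was -0.57 ± 0.13 (edgeR adjusted p = 0.0243). The collagen gene Col1a1 (-0.32 ± 0.21, 0.392) and the myofibroblast product Postn (-0.46 ± 0.34, 0.458) did not pass. None of the 3 calls held without libraries 14, 15, 16 and 18 (adjusted p 0.101 for Fbln2, 0.0598 for Eln and 0.13 for Lama5) or without females 6, 8, 12 and 16 (0.0646, 0.164 and 0.105), and those of Eln and Lama5 ended with the GC correction (0.057 and 0.0602). The Eln call also ended without library 4, 6, 13 or 16 and the Lama5 call without library 4, 8 or 9. Of 20 fibroblast markers, Abca8a alone was called (5.0%, near the 3.59% of all genes). It was higher in late libraries (means 117 and 150 CPM, log2 difference 0.36 ± 0.09, edgeR adjusted p = 0.0334). The Abca8a call ended after GC correction (0.0714) and without either set of 4 libraries (0.0731 and 0.143).

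**Figure D5:**
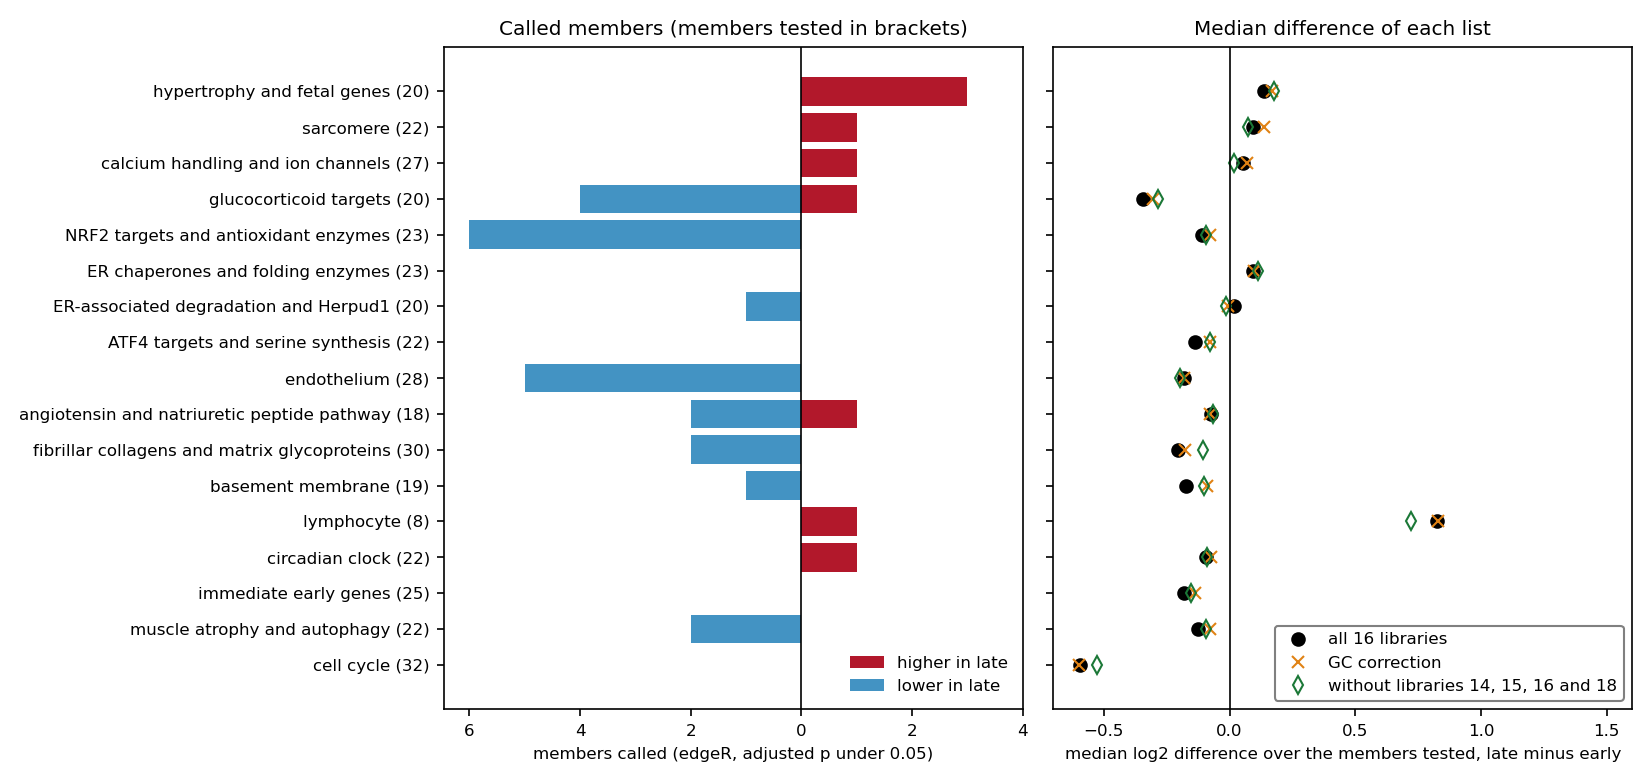
For 17 gene lists, the number of members called higher or lower in late libraries (left, members tested in brackets) and the median log2 difference of the members tested (right) with all libraries, after GC correction and without libraries 14, 15, 16 and 18. The medians of the glucocorticoid, endothelial, matrix and cell cycle lists lie below 0 under all 3 fits, and those of the ER chaperone, sarcomere, hypertrophy and lymphocyte lists above 0.

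Lymphocyte transcripts were scarce and higher in late libraries. The summed level of the 15 markers in the table was 5.36 to 12.7 CPM in early (median 7.28) and 8.82 to 14.1 CPM in late libraries (median 12.2), and 8 markers passed the filter on low counts. The classes overlapped, with a difference of 4.03 CPM (exact permutation p = 0.00472, adjusted p = 0.0299). All 8 log2 differences were above 0 (median 0.83). The B cell receptor subunit Cd79b was the 1 member called (12.5%, against 3.59% of all genes). It ran from 0.320 to 0.845 CPM in early and from 0.707 to 2.19 CPM in late libraries (medians 0.684 and 1.15). Its log2 difference was 0.93 ± 0.24 (edgeR adjusted p = 0.0401). The Cd79b call ended without 11 of the single libraries and without either set (0.0691 and 0.251). The B cell genes Ms4a1 (1.33 ± 0.37, 0.0527) and Cd79a (0.91 ± 0.27, 0.0668) did not pass. The summed difference was 2.94 CPM (adjusted p = 0.206) without libraries 14, 15, 16 and 18 and 2.92 CPM (0.348) without females 6, 8, 12 and 16, and the call also ended without each of 8 single libraries. Summed adipocyte markers were 442 to 773 CPM in early and 343 to 487 CPM in late libraries (-104 CPM, exact permutation p = 0.0042, adjusted p = 0.0299). Most of that sum was Plin4, a lipid droplet protein that muscle cells also make (means 395 and 309 CPM; -0.36 ± 0.12, edgeR adjusted p = 0.0836). The defining adipocyte genes Adipoq and Plin1 stayed under the filter on low counts. The adipocyte difference was -64.5 CPM without early library 1 (0.134), -86.2 CPM without libraries 14, 15, 16 and 18 (0.206), and its call also ended without early library 4 or 8 or late library 10, 13 or 16. The other 16 library measures, among them fibroblast, macrophage, smooth muscle and nuclear-retained RNA sums, did not pass.

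Lists of clock, immediate early, atrophy and cell cycle genes are given as counts, to be read against the 3.59% of all genes called. Of 22 clock genes, Npas2, the partner of the clock factor Bmal1, was called (2.05 to 3.47 and 3.08 to 7.48 CPM; medians 2.89 and 4.18; log2 difference 0.75 ± 0.20; edgeR adjusted p = 0.0443). The call ended with sex as a term, without each early library and without late library 10, 11, 13, 14, 15 or 18, and without the 4 libraries with a GC tilt (0.112) or females 6, 8, 12 and 16 (0.0994). Npas2 was highest in late libraries 14 and 18, and the other late libraries were at 3.08 to 4.91 CPM. The repressors Per1 (-0.35 ± 0.20, 0.329) and Per2 (-0.55 ± 0.24, 0.186) did not pass. Per2 was lowest in libraries 14 and 18, at 12.23 and 10.27 CPM. The other late libraries were at 31.77 to 46.25 CPM and the early libraries at 36.63 to 57.74 CPM. Without libraries 14, 15, 16 and 18 the Per2 difference was -0.34 (edgeR adjusted p = 0.194). No immediate early gene of 25 was called (median -0.18), with Ier3 (-0.47 ± 0.13, 0.0506) and Klf4 (-0.52 ± 0.15, 0.0516) closest; Klf4 was called without libraries 14, 15, 16 and 18 (-0.68, 0.0416). Of 22 atrophy and autophagy genes, the ligase gene Fbxo31 (159 to 285 and 106 to 158 CPM; medians 180.4 and 141; -0.51 ± 0.11, 0.019; no overlap) and Foxo1, a factor that drives atrophy genes (38.7 to 65.0 and 35.7 to 43.1 CPM; medians 48.6 and 39.2; -0.34 ± 0.08, 0.0334), were called lower. Neither was called without libraries 14, 15, 16 and 18 (0.0995 and 0.112), and Foxo1 also not without females 6, 8, 12 and 16 (0.105) or without library 1, 3, 4, 8, 9, 12, 13, 16 or 18. After GC correction 4 members were called lower, as Bnip3 (-0.42, edgeR adjusted p = 0.0239) and Ctsl (-0.28, 0.0282) then passed as well. With all libraries as counted these had not passed (0.065 and 0.0574). No cell cycle gene of 32 was called, 25 were below 0 and the median was -0.59, the lowest of the lists described. Mki67 ran from 5.30 to 22.0 CPM and from 2.77 to 8.29 CPM (-0.85 ± 0.31, 0.121), and Ccnb1 was 3.39 CPM in early library 6 against 0.474 to 1.61 CPM in the other early libraries. Mki67 was highest in early libraries 4 and 6 (17.9 and 22.0 CPM), and the other early libraries were at 5.30 to 8.38 CPM. By median, the summed level of the list went the other way, at 141 CPM in early and 153.5 CPM in late libraries. Over all 45 lists, 38 of 880 members tested were called (4.32%, against 3.59% of all genes), 12 higher and 26 lower.

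Within each genotype the comparison had less power. Among Tln2-null mice 9 genes were called (0.0666%; 7 higher, 2 lower; 1357 at an unadjusted p under 0.05) and among knockout mice 45 (0.333%; 22 higher, 23 lower; 2458). The smallest adjusted p belonged to Synpo2l in Tln2-null (1.04 ± 0.13, edgeR adjusted p = 0.00707) and to Ftl1 in knockout mice (-0.55 ± 0.06, 0.00124). No gene's difference between the genotypes was called (0.0%; 773, 5.72%, at an unadjusted p under 0.05; smallest adjusted p 0.856). For Cldn5 the values were -0.94 ± 0.17 and -0.64 ± 0.18 (difference 0.30 ± 0.25), and for Herpud1 -0.90 ± 0.20 and -0.59 ± 0.20 (0.31 ± 0.29). Without libraries 14, 15, 16 and 18 there were 8 calls in Tln2-null and 0 in knockout mice, where only late libraries 11 and 12 were then left. By sex, 1 gene was called in females (0.0074%), Ms4a4a (-1.64 ± 0.23, 0.037), and 83 in males (0.614%; 33 higher, 50 lower). Without adjustment 1774 and 1961 genes had a p under 0.05. No difference between the sexes was called (0.0%; 812 at an unadjusted p under 0.05; smallest adjusted p 0.253, for Ccdc9b). The number as a slope within each class, fitted beside the step between classes, gave 0 calls (0.0%, smallest edgeR adjusted p 0.297). Without adjustment 1522 genes (11.3%) had a p under 0.05 for this slope. That count fell to 733 of 13415 genes after GC correction and to 270 of 13602 without libraries 14, 15, 16 and 18. With the number as a linear term in place of the step, 957 genes were called, against 485 for the step.

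The comparison of genotypes had sex as a covariate and was fitted with and without the term for the classes. With the early and late term, Cxcl14, a chemokine, was called lower in knockout than in Tln2-null mice (log2 difference -1.12 ± 0.16; edgeR adjusted p = 0.038; 1 of 13517 genes, 0.0074%). Without the term the value was -1.10 ± 0.17 (adjusted p = 0.0755) and 0 genes were called (0.0%; 675, 4.99%, at an unadjusted p under 0.05, against 691, 5.11%, with the term). The log2 value was close in both fits, and with no filter on low counts 8 genes were called with the term and 1 without it. With the term the call ended after GC correction (-1.08, 0.0779), without libraries 14, 15, 16 and 18 (-1.10, 0.33), without females 6, 8, 12 and 16 (-1.10, 0.387) and without most single libraries.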

How the data were processed

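RNA from the left ventricle of 16 mice was isolated with TRIzol and a column kit and made into directional libraries, per the labels' protocols. The authors deposited a table of raw read counts per gene symbol and a normalized table whose signal is those counts divided by 1 size factor per library (16405 genes, 100% of values whole within 0.001 after multiplication). DRAGEN, DESeq2 and the mm10 build are named without role or version per the submitters' processing notes; for the annotation and the strand setting no source used here gives a value. Counts on unstranded settings could mix overlapping antisense genes. Of 24982 entries, 5760 had 0 counts in every library, and 21 of 26 symbols turned to dates were restored.

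Classes came from the number in each title. The members and gene lists were chosen with earlier results of these data known. Counts were tested with edgeR 4.0.16 (R 4.3.3; TMM, filterByExpr, quasi-likelihood, genotype as covariate, Benjamini-Hochberg over all genes, threshold 0.05). Fits within genotypes and sexes, their differences and the number within classes used all 16 libraries and a shared spread. The comparison of knockout against Tln2-null mice had sex as a covariate. P-values measure the spread between these mice. Library measures used exact two-sided permutation tests over 11440 divisions, adjusted over 19 measures. Cldn5 and Herpud1 were named first, then the 12 higher and 12 lower called genes of lowest p with a mean of at least 5 CPM in either class (no predicted, sex-linked or date symbols), up to 4 members of lowest p of each list described, and up to 4 genes of each difference. Other called list members, the genes that complete a list's account and Cxcl14 were chosen after their values were seen. On simulated counts of 13446 genes for late against early, edgeR called 86 of 100 genes changed 1.5-fold and 98 of 100 changed 2-fold, with 15 false calls. The simulated libraries had no GC tilt and no Y-linked reads in females, and only genes of at least 5 CPM were changed. Genes varied independently of each other, so these rates do not carry over to the real counts.

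Alternatives were DESeq2 1.42.0 and its size factors, limma 3.58.1 (voom with quality weights; log2 of the deposited normalized values with a pseudocount of 1), sva 3.50.0 with 1 surrogate variable, no filter or a filter of 1 CPM in 7 libraries, sex added, genotype left out, the number as a linear term, and libraries left out. The GC correction (a smooth of log2 CPM deviations on transcript GC content per library, as an offset; 99.2% of genes had a value), the tilt measure, leaving out libraries 14, 15, 16 and 18 and leaving out sets of libraries from the library measures were chosen after seeing the data. Results that need certain items are not reported here. Promoters are from RefSeq GRCm38.p6. Total counts of 11161766 to 19221673 per library set the precision.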

Additional observations from a re-analysis of the deposited data

Results flagged for a closer look

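Of 208 groups of named-gene levels and library measures within a class, 14 (6.73%) had a highest or lowest library farther from the others than Dixon's test allows; chance flags about 1 in 20. Early library 1 held 5 of these: Rcan1 was low at 90.4 CPM (the other early libraries 107 to 118), while Chac1 was high at 19.7 CPM (4.47 to 10.8), as were Gpihbp1 at 126 CPM (89.9 to 102), Fbxo31 at 285 CPM (159 to 204) and the adipocyte sum at 773 CPM (442 to 544). Among the other early libraries, Hspa5 was high in library 2 at 783 CPM (546 to 632), Lcn2 in library 5 at 16.4 CPM (4.63 to 9.46) and Ccnb1 in library 6 at 3.39 CPM (0.474 to 1.61). Late library 18 was high in B3galt2 at 50.7 CPM (17.7 to 28.9) and low in Furin at 94.8 CPM (115 to 135), in the direction of the class in both. Late library 9 was high in Atf3, a stress-induced factor, at 89.8 CPM (3.08 to 25.1) and low in the lymphatic and endocardial sum at 224 CPM (253 to 277). Late library 14 was high in Fosl2 at 47.3 CPM (22.6 to 32.4) and in the neutrophil and mast cell sum at 102 CPM (19.3 to 56.4).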

How the results depend on the processing

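No paired analysis was possible because early and late libraries share no replicate numbers. Against 485 calls in all mice, there were 957 with the number as a linear term, 958 with DESeq2, 953 with limma-voom, 58 without the females with Y-linked reads, 258 without library 9, 184 without libraries 9, 14 and 18 and 136 without libraries 14, 15, 16 and 18, and from 204 to 641 with 1 library left out. With no filter on low counts, calls were 15 in Tln2-null, 70 in knockout, 49 in females, 212 in males, and for knockout against Tln2-null 8 with and 1 without the early and late term. Without the females with Y-linked reads they were 0 in Tln2-null, knockout and females, 13 in males and 0 for the genotypes with the term. Without libraries 14 and 18 they were 36 in Tln2-null, 29 in knockout, 12 in females, and 6 with and 5 without the term. GC correction gave 15 in females and 0 with the term, and leaving out libraries 14, 15, 16 and 18 gave 0 in knockout and in females. With 1 library left out, calls ran from 1 to 35 in Tln2-null, 1 to 138 in knockout, 0 to 25 in females, 0 to 120 in males, 0 to 9 with the term and 0 to 7 without it, and were 0 for both differences and the number within classes. Library measures without the females with Y-linked reads were -337 CPM for endothelium and 2.92 CPM for lymphocytes; without libraries 14, 15, 16 and 18 they were -410 CPM, 2.94 CPM, -86.2 CPM for adipocytes and -4.40 CPM for epicardium, which then passed. With 1 library left out they ran from -455 to -326 CPM (endothelium), 3.61 to 4.83 (lymphocytes), -120 to -64.5 (adipocytes), -3.73 to -2.29 (epicardium), 2185 to 3605 (cardiomyocytes) and 0.230 to 0.347 percentage points (share of the top 10 genes). Atf3 reversed to a log2 difference of -0.33 without libraries 9, 14 and 18 (main 1.31). Of 2742 values of named genes under alternatives, 2466 kept their direction and side of the threshold, 166 lost and 109 gained a call, and 1 reversed. The cause of these shifts was not tested.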

Other observations

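Called members of lists not described above were few. Eno3, the muscle enolase of glycolysis, was 1450.0 to 1707 CPM in early and 1618 to 1967 CPM in late libraries (log2 difference 0.19, edgeR adjusted p = 0.0433), and Psmb9, an immunoproteasome subunit, 7.39 to 10.5 and 8.95 to 12.02 CPM (0.30, 0.0486). Higd1b, a pericyte marker, was 10.8 to 12.7 and 7.99 to 10.8 CPM (-0.32, 0.0214), and the chemokine Ccl9 10.1 to 24.1 and 8.34 to 13.2 CPM (-0.69, 0.0294). None of these 4 was called without libraries 14, 15, 16 and 18 (adjusted p 0.0604, 0.131, 0.13 and 0.102) or without females 6, 8, 12 and 16 (0.0994, 0.16, 0.162 and 0.207). None of 40 nuclear oxidative phosphorylation genes, 74 cytosolic ribosomal proteins and 26 cytosolic heat shock chaperones was called, with 7, 7 and 6 at an unadjusted p under 0.05 (edgeR). Over all genes, principal component 1 (19.69% of the variance) ran from -5.33 to 29.0 in early and from -25.5 to 16.1 in late libraries. Component 2 (14.46%) ran from -3.92 to 27.3 in early and from -29.8 to 3.78 in late libraries. The classes overlapped in both, as they did in components 3 and 4.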
